A study of Homo sapiens with 8 samples.

Results

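The loci described here are the neighbouring genes NEAT1 and MALAT1 on human chromosome 11 (hg19), in chromatin immunoprecipitation sequencing (ChIP-seq) peak lists for 5 transcription factors. All peaks that share at least 1 bp with chr11:65170000-65290000, a window of 120 kb, were taken, and 31 of the 24078 peaks of the 7 lists met this rule. The window was chosen on the lists themselves and names 2 broad ETS1 regions in it. Counts and widths within it are therefore descriptions and carry no test. Gene positions are those of the rule, which places the start of NEAT1 near 65.190 Mb and that of MALAT1 near 65.265 Mb. These rounded positions are called the NEAT1 mark and the MALAT1 mark below, and they lie 75 kb apart.

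ETS1, ELF1, ELK4, GABPA and JUND were precipitated from DU145, a prostate cancer cell line, and ETS1 also from PANC1, a pancreatic cancer cell line. The labels name no treatment or genotype, and a growth text that names DU145 alone mentions puromycin for selected cells. There are 6 samples with a list, 1 per group, and the 2 input samples were not analysed here, so the level of input DNA over these genes was not tested. The ETS1 sample of DU145 has 2 lists, the second marked R2, and the labels do not say whether they are separate precipitations. They were counted as 1 sample, while counts of lists below keep them apart. The lists give a chromosome, a start and an end for each peak, with no height or read count, so the depth behind each peak is unknown.

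NEAT1 and MALAT1 are long noncoding RNAs that stay in the nucleus and are abundant in many cell types. NEAT1 is the scaffold of paraspeckles and is made as a short and a long form from the same start. MALAT1 is found at nuclear speckles, and its end is processed to release the small cytoplasmic mascRNA. ETS1, ELF1, ELK4 and GABPA share the ETS domain, which binds sites with a GGAA core. JUND is a subunit of AP-1, which binds the letters TGANTCA, and ETS and AP-1 proteins can bind side by side at RAS-responsive elements.

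Peaks of ETS1 and JUND lay at both genes and at places between them, while the window held no GABPA, ELK4 or ELF1 peak. The first DU145 ETS1 list had 8 peaks in it, the second 12, JUND 8 and PANC1 ETS1 3. These are 1.48% of the 541 first-list peaks on chromosome 11, 2.47% of the 485 second-list peaks, 9.20% of the 87 JUND peaks and 10.3% of the 29 PANC1 peaks. Joined where they overlap, the 31 peaks form 13 separate regions. Of these, 2 held all 4 lists, 3 held both ETS1 lists with JUND, 2 held both ETS1 lists alone and 6 held a peak of 1 list only. The regions with all 4 lists are the broad ETS1 intervals at NEAT1 and at MALAT1. First-list ETS1 intervals covered 28.2% of the window, against 4.96% for the second list, 7.96% for JUND and 1.25% for PANC1. The lists were made with intervals of different width, so these shares of bases do not rank the factors.

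**Figure D1:**
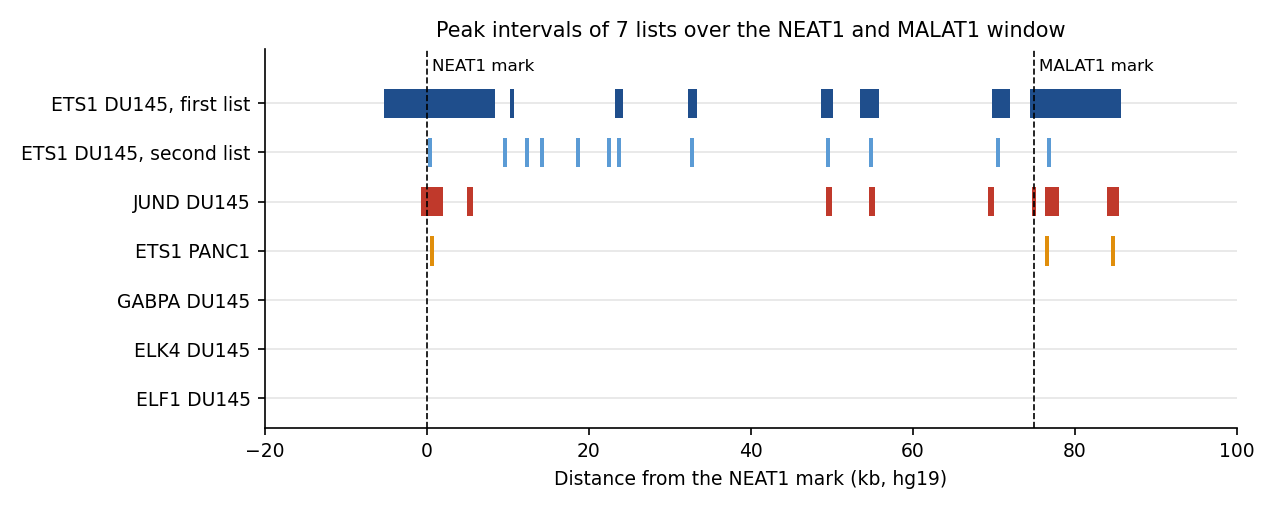
Peak intervals of the 7 lists (rows) in the 120 kb window, drawn to scale by distance in kb from the NEAT1 mark, with dashed lines at the NEAT1 and MALAT1 marks. The 8 first-list ETS1 intervals include 1 of 13.7 kb at NEAT1 and 1 of 11.3 kb at MALAT1, and the rows of GABPA, ELK4 and ELF1 are empty.

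The broad interval at NEAT1 was the widest of the 9984 first-list ETS1 peaks. It ran from 65184646 to 65198352, a width of 13707 bp, or 11.7 times the list's median of 1173 bp. It stood on line 5 of the list. It began 5354 bp before the NEAT1 mark and ended 8352 bp after it, so it covered both the upstream side and the early part of the gene. RefSeq gives NEAT1 a length of 22743 bp in GRCh38.p14, a build other than that of the peaks, so the share of the gene under the interval was not computed. The second ETS1 list had a single peak in this interval, from 65190145 to 65190644, on line 10 of 9306. Its centre lay 394 bp after the NEAT1 mark. The PANC1 list had 1 peak there, from 65190325 to 65190823, which shared 320 bp with the second-list peak. Their centres were 180 bp apart, so the narrow ETS1 peaks of both cell lines fell at nearly the same place.

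JUND had 2 peaks in the NEAT1 interval. The larger, from 65189241 to 65191954, spanned 2714 bp and was the 5th widest of the 1308 JUND peaks. It held the whole second-list ETS1 peak and the whole PANC1 peak, and its centre lay 24 bp from that of the PANC1 peak. The smaller, from 65194922 to 65195719, lay about 5.3 kb after the NEAT1 mark and 3619 bp from the nearest second-list ETS1 peak. JUND peaks covered 25.6% of the interval. NEAT1 therefore had 1 place where all 4 lists met, close to the mark, and a JUND peak further into the gene that only the first ETS1 list covered.

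The broad interval at MALAT1 was the third widest of the first list. It ran from 65264430 to 65275740, a width of 11311 bp, 9.64 times the list's median, and stood on line 122. It began 570 bp before the MALAT1 mark and ended 10740 bp after it. Its upstream part was thus far shorter than that of the NEAT1 interval, and RefSeq gives MALAT1 a length of 8779 bp in GRCh38.p14. The second ETS1 list again had a single peak, from 65266566 to 65267066, on line 67, with its centre 1816 bp after the mark. PANC1 had 2 peaks. That from 65266361 to 65266858 shared 293 bp with the second-list peak, and that from 65274492 to 65274989 lay 7425 bp from it.

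JUND had 3 peaks in the MALAT1 interval, more than in any other first-list ETS1 peak. The first, from 65264720 to 65265196, was 477 bp wide and held the MALAT1 mark itself, 1369 bp from the nearest second-list ETS1 peak. The next, from 65266287 to 65268038, was 1752 bp wide and held the whole second-list ETS1 peak and the whole nearer PANC1 peak. The last, from 65273962 to 65275444, was 1483 bp wide and held the whole farther PANC1 peak, with centres 38 bp apart. JUND peaks covered 32.8% of the interval. At this far end the PANC1 ETS1 peak and the DU145 JUND peak coincided, while the nearest peak of the second DU145 ETS1 list lay 6895 bp from that JUND peak. The broad first-list ETS1 interval covered this far end as well. Of the 53 PANC1 peaks that met JUND in the whole list, 7 met no second-list DU145 ETS1 peak. Of all 409 PANC1 peaks, 70.7% met the second list. In the JUND list, 453 peaks met the first ETS1 list, and 111 of these met no second-list peak. The second list met 31.3% of all 1308 JUND peaks and 82.0% of all 9984 first-list ETS1 peaks.

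**Figure D2:**
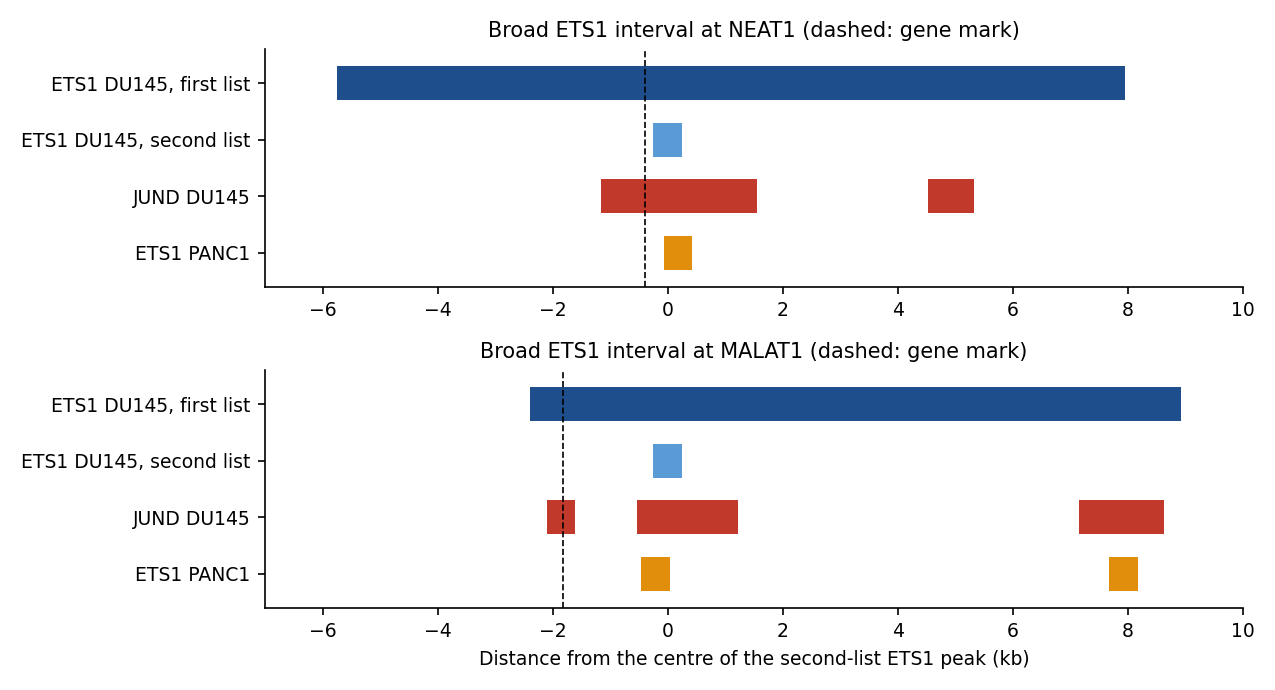
The 2 broad ETS1 intervals with the peaks of the other lists inside them, by distance in kb from the centre of the second-list ETS1 peak, with a dashed line at each gene mark. At NEAT1 the narrow ETS1 peaks and the larger JUND peak lie together near the mark, whereas at MALAT1 their centres lie 1.6 to 2.2 kb beyond it, and a further JUND and PANC1 pair lies near the end of the interval. The MALAT1 mark is a rounded position, and RefSeq gives 2 starts for this gene, 1307 bases apart. Distances from each start were not computed.

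The letters at the starts of MALAT1 are shown because all 4 lists had peaks in the first few kb of the gene. The RefSeq promoter table (GRCh38.p14) has 2 MALAT1 starts, 1307 bases apart, each with 250 bases before and 50 after the start on the plus strand, and NEAT1 was not among its entries. The table's build differs from that of the peaks, so these sequences were not placed under individual peaks. Capitals mark the ETS core GGAA on either strand, which reads TTCC on the other strand, and the AP-1 letters TGANTCA. The sequences are chr11:65497488-65497787 and chr11:65498795-65499094.
MALAT1 start 1: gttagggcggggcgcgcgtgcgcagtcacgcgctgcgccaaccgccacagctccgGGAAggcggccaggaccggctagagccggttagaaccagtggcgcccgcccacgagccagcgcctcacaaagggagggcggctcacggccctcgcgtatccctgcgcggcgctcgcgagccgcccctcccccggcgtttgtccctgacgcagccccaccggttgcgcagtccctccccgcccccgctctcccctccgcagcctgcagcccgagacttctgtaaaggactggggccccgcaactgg
MALAT1 start 2: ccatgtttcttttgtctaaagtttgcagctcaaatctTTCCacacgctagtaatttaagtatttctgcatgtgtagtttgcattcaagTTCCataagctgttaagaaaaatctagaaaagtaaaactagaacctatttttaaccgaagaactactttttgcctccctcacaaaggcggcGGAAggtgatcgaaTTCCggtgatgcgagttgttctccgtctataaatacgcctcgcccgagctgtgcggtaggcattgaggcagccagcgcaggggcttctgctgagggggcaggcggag

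The sequence at the first MALAT1 start was rich in G and C, at 73.7%, and held 1 GGAA core. The sequence at the second start had a G and C content of 46.0% and 4 such cores, 1 of them within the longer ETS letters CGGAAG at position 179, counted from 1 at the 5′ end. Neither held TGANTCA or the full ETS letters CCGGAAGT. Among all 35116 RefSeq promoters of the same length, GGAA occurred in 95.5%, CGGAAG in 19.5%, TGANTCA in 7.71% and CCGGAAGT in 4.14%, on both strands, and the ETS letters contain one another. A single GGAA core is therefore common, and these matches describe letters and not bound sites.

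Between the 2 broad intervals, 5 further first-list ETS1 peaks met a second-list peak. The first of these, from 65213249 to 65214209, ends a run of late-line peaks described below and had no JUND peak, and of the other 4 JUND met 3. The earliest of the 4 by position, from 65222194 to 65223392, was 1199 bp wide, on line 3936, and had no JUND peak. The next, from 65238686 to 65240154, was 1469 bp wide, and the second-list ETS1 peak and the JUND peak inside it had centres 55 bp apart. The following one, from 65243493 to 65245872, was 2380 bp wide and stood on line 813, the earliest after the broad intervals. Its second-list ETS1 peak and its JUND peak had centres 110 bp apart. The last, from 65259748 to 65262030, lay 4.1 kb before the MALAT1 mark by its centre. The JUND peak there shared only 229 bp with the edge of the first-list interval and stopped 295 bp short of the second-list ETS1 peak. None of the 4 held a PANC1 peak.

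In the RefSeq table the microRNA gene MIR612 lies within NEAT1, and the genes between NEAT1 and MALAT1 are the pseudogene FAUP4 and the long noncoding RNA genes ENEMAL and LINC02736. The antisense RNA gene TALAM1 shares bases with MALAT1, MASCRNA lies within MALAT1, and the pseudogene SNRPGP19 follows. On the NEAT1 side the group is flanked by the coding genes FRMD8 and SLC25A45. Of the 7 promoter entries found for these genes, TGANTCA occurred only in that of ENEMAL, a minus-strand start. Its promoter, chr11:65477438-65477737 in GRCh38.p14, is shown because no other of the 7 entries held TGANTCA. The entry of LINC02736, also between NEAT1 and MALAT1, lacked these letters and is not shown. A choice by letters says nothing about the regions that held both ETS1 and JUND. The ENEMAL promoter was not placed under a peak, for the same reason of build.
ENEMAL start: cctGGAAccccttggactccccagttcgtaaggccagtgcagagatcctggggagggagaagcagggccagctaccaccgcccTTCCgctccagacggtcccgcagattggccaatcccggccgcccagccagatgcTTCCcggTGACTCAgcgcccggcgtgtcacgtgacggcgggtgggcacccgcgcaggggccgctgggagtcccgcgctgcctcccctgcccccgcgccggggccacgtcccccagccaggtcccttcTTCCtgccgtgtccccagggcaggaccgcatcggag

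The AP-1 letters in the ENEMAL sequence read TGACTCA, at position 145, and a TTCC core began at position 138. GGAA within 20 bases of TGANTCA was found in 3.24% of all promoters. The sequence also held CGGAAG, as CTTCCG on the printed strand at position 83, letters that it shared with the promoter of FRMD8 and the second start of MALAT1. No entry in this group held CCGGAAGT.

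The remaining 6 second-list ETS1 peaks formed a run directly after the broad NEAT1 interval. They lay between 65199339 and 65213987, a span of 14649 bp that began 986 bp after the interval's end. All 6 were on late lines, from 7989 to 8489 of 9306. The first list had 2 peaks in this run, from 65200217 to 65200689 on line 9549 and from 65213249 to 65214209 on line 9034, and only the latter met a second-list peak. No JUND or PANC1 peak lay there, as at the ETS1 peak from 65222194 to 65223392 that came next. By the RefSeq length of NEAT1, counted from the rounded mark, most of the run would fall within that gene, but its end in hg19 was not used here.

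**Figure D3:**
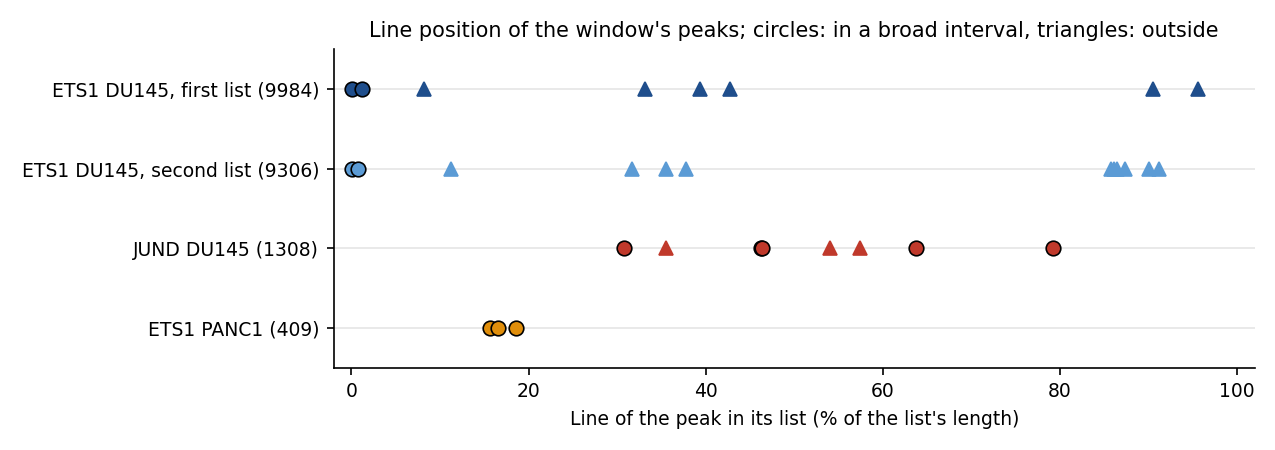
Line of each of the window's peaks in its own list, in % of the list's length, for the 4 lists with peaks there. Circles are peaks in the NEAT1 or MALAT1 broad interval and triangles are peaks outside. ETS1 peaks of the broad intervals stand within the first 1.22% of both DU145 lists, and the run after the broad NEAT1 interval stands between 85.8% and 91.2% of the second list.

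Line order is not explained by any source used here. In the 2 DU145 ETS1 lists, the peaks of the broad intervals stood on lines 5 and 122 and on lines 10 and 67. In the JUND list the peaks of the window were spread from line 403 to line 1036, so no JUND peak here was among the earliest. The PANC1 list is grouped by chromosome, and within its 29 chromosome 11 lines the NEAT1 peak was at place 3 and the MALAT1 peaks at places 7 and 15.

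Widths of the 8 first-list peaks ranged from 473 to 13707 bp, around a median of 1876 bp. The list has 3 peaks over 10 kb, namely these at NEAT1 and MALAT1 and 1 on chromosome 17 of 12073 bp. The widest below that size, on chromosome 10, spanned 9760 bp. Within the window the widest after the broad intervals was the 2380 bp peak, so no interval of middle size was present. Widths of the 8 JUND peaks ranged from 477 to 2714 bp with a median of 799 bp, against 696.5 bp in the whole JUND list. The 3 widest of them lay in the broad ETS1 intervals, at places 5, 22 and 39 of 1308 by width. All second-list and PANC1 peaks here were between 475 and 501 bp.

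**Figure D4:**
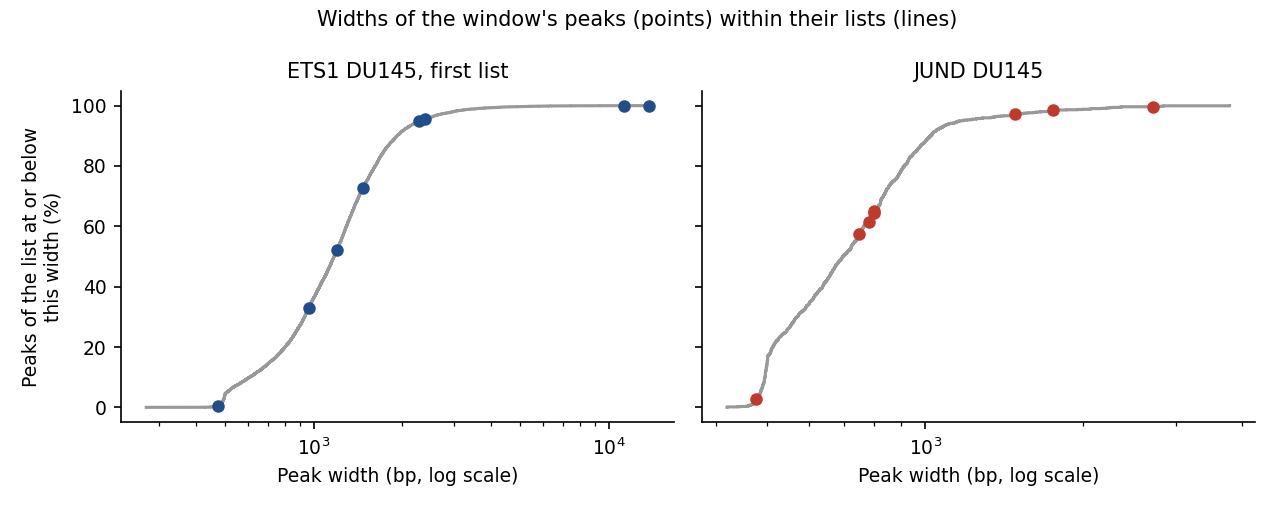
Widths in bp (log axis) of the window's first-list ETS1 and JUND peaks (points), on the cumulative curve of all widths in each list (lines, % of peaks at or below each width). The NEAT1 and MALAT1 intervals sit at the upper end of the ETS1 curve, at 13707 and 11311 bp, and 3 of the 8 JUND peaks at the upper end of theirs.

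The lists that met the window's peaks were set beside their shares over whole lists. Of the 8 first-list ETS1 peaks, 7 met a second-list peak (82.0% over all 9984), 5 met JUND (4.44%) and 2 met PANC1 ETS1 (3.02%). At least 2 JUND peaks were present in 2 of the 8, and in 0.100% of the list. Of the 12 second-list peaks, 7 met the first list (88.4% over all 9306) and 4 met JUND (4.41%). All 8 JUND peaks met the first ETS1 list (34.6% of all 1308) and 4 met the second (31.3%). All 3 PANC1 peaks met JUND (13.0% of all 409) and the first ETS1 list (75.6%), and 2 met the second (70.7%). Wide intervals meet other lists more easily, and the window was chosen with the broad intervals in view, so nothing was read from these counts beyond their size.

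Among the 35 first-list peaks over 5 kb, JUND met 57.1% (20, with a 95% Clopper-Pearson interval of 39.4 to 73.7%), at least 2 JUND peaks met 20% (7 peaks, 8.44 to 36.9%), and PANC1 ETS1 met 42.9% (26.3 to 60.6%). JUND and PANC1 together were present at 10 of these 35, NEAT1 and MALAT1 among them, and at 63 of the whole list. The interval with 3 JUND peaks, that of MALAT1, was the single such peak in the list. The intervals cover counting error only.

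No peak of the other ETS factors lay in the window. GABPA met 23.7% of all first-list peaks and 22.9% of those over 5 kb (10.4 to 40.1%), ELK4 met 2.77% and 11.4% (3.20 to 26.7%), and ELF1 met 2.36% and 5.71% (0.700 to 19.2%). With 0 of 8 first-list peaks here, a floor of 3 counts allows a share of up to 37.5%, above GABPA's share of the list. These 8 are neighbours in a window chosen on the lists, so the floor is no test. Nothing was read from the absence of GABPA here. Of the 35 wide ETS1 peaks, 25 had none of the other ETS factors. This count was not taken over the whole list, so it cannot be read as a trait of wide peaks. The nearest GABPA peak lay 47.7 kb beyond the window's end, the nearest ELK4 peak 53.2 kb beyond it, and the nearest ELF1 peak 318 kb before its start. The ELF1 and ELK4 lists are short, with 256 and 337 peaks.

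**Figure D5:**
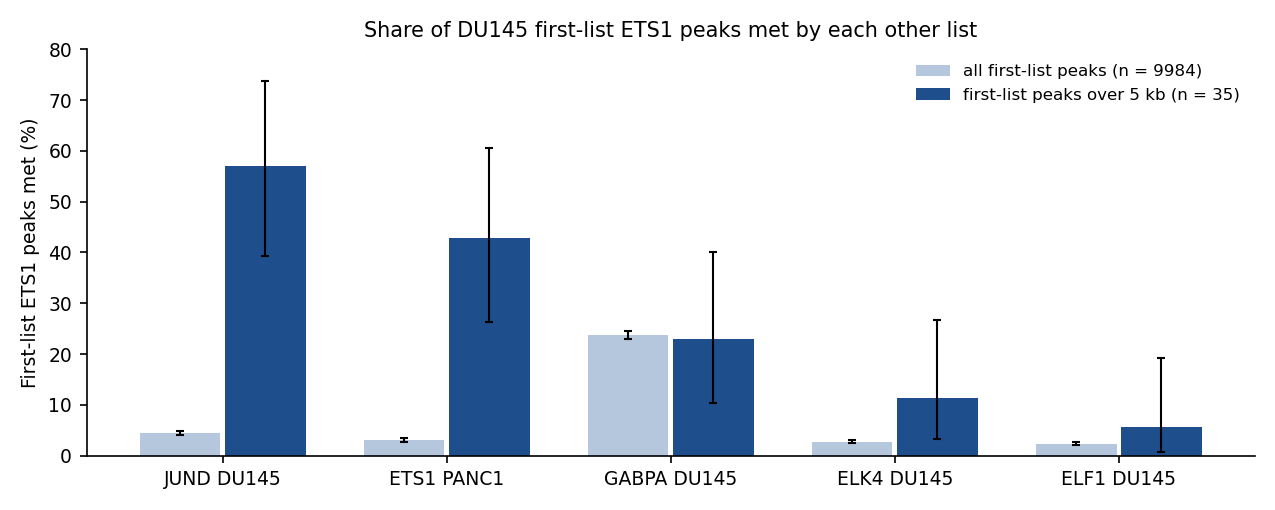
Share of first-list DU145 ETS1 peaks met by each other list, in %, over all 9984 peaks (light bars) and over the 35 wider than 5 kb (dark bars), with 95% Clopper-Pearson intervals. JUND and PANC1 ETS1 met 57.1% and 42.9% of the wide peaks, while the dark GABPA bar, at 22.9%, is close to its light bar.

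The density of peaks was compared with 24586 adjoining windows of the same length along the genome. Peaks of at least 4 lists were present in 2.70% of them, or in 9.81% of the 6760 that held any peak. The first and second DU145 ETS1 lists count separately here, so this is not a count of samples or factors. At least 8 first-list ETS1 peaks were present in 0.134% (33 windows), at least 3 PANC1 peaks in 0.110%, and at least 12 second-list ETS1 peaks or at least 8 JUND peaks in 0.00407% each, which is 1 window. Both grid windows over these loci are among the 33, with 8 and 9 first-list peaks, and the latter, which reaches to 65367289, also holds 1 GABPA and 1 ELK4 peak. The grid window with 12 second-list peaks overlaps NEAT1 and reaches from 65127288 to 65247288, so its 12 peaks are not the same set, and elsewhere the highest count was 11. For JUND, 8 peaks were reached in 1 window elsewhere, while the grid windows over NEAT1 and MALAT1 held 5 each because the grid parts the genes. For PANC1, the same grid windows held 1 and 2 peaks, so neither is among the windows with at least 3. The highest PANC1 count elsewhere was 8, in 1 window. Of the 33 windows with at least 8 first-list ETS1 peaks, 21 held JUND and 10 had no GABPA, ELK4 or ELF1 peak. Neither count is set here beside a share of all windows, so neither can be read as a trait of these windows. The rule's edges were set around known peaks and the grid's were not, so these shares describe the counts and give no probability.

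The 120 kb before the window held 4 first-list and 4 second-list ETS1 peaks and 1 JUND peak, and the 120 kb after it held 8 first-list and 6 second-list ETS1 peaks, 1 JUND, 2 GABPA and 1 ELK4 peak. First-list ETS1 peaks were thus as many after the window as in it, while PANC1 ETS1 had 0 peaks on either side. The nearest first-list ETS1 peak after it, from 65292874 to 65293436, lay 2873 bp from the edge, on line 9681. The nearest before it lay 15.6 kb away, on line 9691. The nearest JUND peaks lay 19.6 kb before and 54.5 kb after the window, and the nearest PANC1 ETS1 peak 335 kb after it. The edges of the window thus cut through no peak.

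Whether ETS1 also had peaks at the genes for paraspeckle and speckle proteins could not be examined, since no gene starts of the files' build were used here. As a description of letters alone, CGGAAG was present in 11 of 34 promoters of paraspeckle protein genes (32.4%) and in 11 of 32 of nuclear speckle protein genes (34.4%). It was present in 3 of 31 promoters of other long or structural noncoding RNA genes (9.68%), beside 19.5% of all promoters. TGANTCA was present in 2.94%, 6.25% and 6.45% of the 3 sets, beside 7.71% of all promoters, and CCGGAAGT in 8.82%, 12.5% and 3.23%, beside 4.14%. Of the genes listed, 25 of 30, 19 of 20 and 25 of 34 had a promoter entry.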

How the data were processed

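ChIP-seq peaks of 6 samples were used, in 7 lists. Per the labels, the deposited files are on hg19. Bowtie2 2.0.6 appears in the submitters' processing notes, which assign it no role. Which peak caller and threshold were used, whether inputs served as background, and the read depth were not given in those sources. Per the files' own columns, the authors deposited only a chromosome, start and end for each peak, with no score. Starts were written 1-based.

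Overlaps and intervals were computed in Python 3.11.15 (SciPy 1.17.1), and Matplotlib 3.10.9 drew the plots. Sharing at least 1 bp counted as meeting. A broad interval is the widest first-list ETS1 peak that holds a gene mark. Overlap, merging and window counts were tested on simulated data and recovered in 3 of 3 lists. Genes were named as NEAT1, MALAT1 and their RefSeq neighbours. One neighbour is not reported here. The members, gene lists and settings were chosen with earlier results of these data known. No test was run, since there is 1 sample per group and the rule used these lists. Alternatives are given in the closing section. Coverage of gene bodies and peaks at gene starts were not computed, because the RefSeq tables are on GRCh38.p14.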

Additional observations from a re-analysis of the deposited data

How the results depend on the processing

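The 28 alternatives comprised other window edges, overlap rules, thresholds, list choices and grids, and 16 of them left the value within 1.5 times, or within the interval of a share. The window held 31 peaks, 18 with peaks of one list under 5 kb apart merged, and 19 when each list was cut at its middle line. At the broad NEAT1 and MALAT1 intervals, 3 other lists were present as reported. The number was 0 for each with peak centres within 200 bp of the broad interval's centre, and 0 for each with 500 bp around every centre, since the narrow peaks lie away from the middle of the broad intervals. The width rank of the NEAT1 interval went from 1 to 9, and that of MALAT1 from 3 to 10, after merging under 5 kb, where they spanned 16044 and 15993 bp. In the second ETS1 list the ranks were 1539 for NEAT1 and 1 for MALAT1, the latter tied among 1538 peaks of equal width, so width ranks nothing there. The share of windows with at least 4 lists, 2.70%, was 1.23% with windows of 60 kb and 0.962% with each list cut at its middle line. Because PANC1 lines run chromosome by chromosome, this cut kept or dropped PANC1 peaks by chromosome. The PANC1 peaks of the window, on lines 64, 68 and 76 of 409, stayed in because of where chromosome 11 stands. The values of 19 and 0.962%, and the 3 lists still present at each broad interval after this cut, depend in part on that order. Depth is unknown, so what it limits could not be stated. Gene body coverage and the fixed gene lists were not run. No paired analysis was possible because there is 1 sample per group.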

Other observations

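Runs of 6 second-list ETS1 peaks within 20 kb were found at 4 places in the genome, and the one after the broad NEAT1 interval was the shortest, at 14649 bp. The others lay at chr12:125395350-125413108, chr19:1169341-1184063 and chr19:1259083-1276141 and spanned 17759, 14723 and 17059 bp. Their earliest lines were 157, 3657 and 1178, whereas the earliest line of the run at NEAT1 was 7989. Their latest lines were 8909, 8503 and 8806, against 8489 at NEAT1, so each of them also held late-line peaks. JUND had 3, 1 and 3 peaks in those runs and 0 in the run at NEAT1. Of the 6 peaks of each run, the first ETS1 list met 1 at NEAT1, and 4, 3 and 5 in the others. The runs were picked from these lists, and no explanation was tested.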
